A study of Mus musculus with 24 samples.

Results

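The 38 genes described here act in the G2 phase of the cell cycle and in mitosis. They were chosen by gene symbol from a list made with earlier results of these data known. All 38 were present among the 24421 genes of the count table. They comprise proliferation markers, cyclins with their kinase, mitotic kinases, kinetochore and centromere proteins, kinesins, spindle and cytokinesis proteins, regulators of the anaphase-promoting complex and the transcription factor Foxm1. RNA was sequenced in bulk from sciatic nerve of mice that were homozygous for a floxed Nf1 allele and carried a Cre recombinase driven by Postn. Plexiform neurofibroma, which grows benignly from the sheath of nerves, is the tumour stage in the labels. The genotype was the same in every group, so no group lacked the floxed allele or Cre. Mice had received, for 1 week, the ERK1/2 inhibitor LY3214996 together with the CDK4/6 inhibitor abemaciclib (combination), LY3214996 alone (ERKi), abemaciclib alone (CDKi) or vehicle. Each of the 4 groups held 6 libraries. The labels do not say that the libraries came from separate animals and give no age or dose. The spread that the p-values are set against may therefore be partly technical. Postn-driven Cre acts in the Schwann cell lineage but also in other cells that express Postn, and a whole nerve holds cells with and without the recombined allele.

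Cells that pass through G2 switch on a shared set of genes whose proteins condense and separate chromosomes, build the spindle and divide the cell, and most of these transcripts are nearly absent from resting cells. In G0 and G1 the DREAM complex, made of E2F4, a pocket protein and the MuvB core, holds these genes off through a promoter element called the cell cycle genes homology region (CHR). After entry into the cycle MuvB works with B-MYB and then FOXM1 to activate them, and the factor NF-Y, which binds CCAAT boxes, adds to their activity. CDK4/6 with cyclin D phosphorylates RB and the other pocket proteins, and ERK signalling raises cyclin D, so both drugs act upstream of this switch. Most cells of an adult nerve do not divide. In bulk tissue, fewer cycling cells and less RNA per cycling cell cannot be told apart.

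The promoters of these genes show the elements that the background describes. RefSeq promoter windows on GRCm38.p6, 250 bases before to 50 after a transcription start, were found for 31 of the 38 genes. The core of the CHR is TTTGAA. It occurred, on either strand, in 23 of 31 (74.2%), and in 20.2% of the windows of 27025 genes. The NF-Y box, the letters CCAAT, could share an end base with the CHR core. It occurred, on either strand, in 22 of 31 (71.0%), and in 41.1% of all genes. Both occurred in 1 window in 19 of 31 (61.3%), and in 7.97% of all genes. A match is a run of letters, not a shown binding site. The 5 genes with a window and the lowest fold change in the combination, and the 2 with the highest, are shown because the results below turn on them. The stretches are 120 bases read 5′ to 3′ toward the gene, and capitals mark the CHR core, the NF-Y box or their reverse complements. Each ends at the base before the RefSeq start, except that of Ccnb1, which ends 85 bases before the RefSeq start.
Ccnb1 (chr13:100786571-100786690, minus strand): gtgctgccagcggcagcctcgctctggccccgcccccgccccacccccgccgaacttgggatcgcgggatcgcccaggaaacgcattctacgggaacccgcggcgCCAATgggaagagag
Mki67 (chr7:135716380-135716499, minus strand): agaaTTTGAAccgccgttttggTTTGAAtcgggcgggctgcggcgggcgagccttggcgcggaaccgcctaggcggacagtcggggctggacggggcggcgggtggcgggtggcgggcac
Cenpf (chr1:189688087-189688206, minus strand): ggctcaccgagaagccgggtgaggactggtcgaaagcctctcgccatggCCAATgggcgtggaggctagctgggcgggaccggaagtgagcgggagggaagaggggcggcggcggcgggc
Top2a (chr11:99024190-99024309, minus strand): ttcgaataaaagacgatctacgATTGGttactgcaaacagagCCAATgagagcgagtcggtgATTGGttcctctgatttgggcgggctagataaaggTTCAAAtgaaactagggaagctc
Hmmr (chr11:40733438-40733557, minus strand): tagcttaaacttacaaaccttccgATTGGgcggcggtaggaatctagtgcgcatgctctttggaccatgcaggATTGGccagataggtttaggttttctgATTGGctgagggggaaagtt
Bub1b (chr2:118598091-118598210, plus strand): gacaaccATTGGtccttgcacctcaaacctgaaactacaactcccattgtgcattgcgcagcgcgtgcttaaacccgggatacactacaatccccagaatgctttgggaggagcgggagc
Anln (chr9:22389207-22389326, minus strand): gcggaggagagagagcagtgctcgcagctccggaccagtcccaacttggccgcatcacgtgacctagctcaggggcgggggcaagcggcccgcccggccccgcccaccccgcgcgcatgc
In the stretches shown, Mki67 carries a pair of CHR cores 18 bases apart, Top2a has 1 core and 3 CCAAT boxes, and Hmmr has 3 CCAAT boxes. Bub1b has 1 CCAAT box and Anln neither motif in its stretch. In the full windows Mki67 also has 3 CCAAT boxes, Top2a has 2 cores and 6 CCAAT boxes, and Hmmr has 5 CCAAT boxes. The cores of Cenpf, Hmmr, Bub1b and Anln lie after the start in those windows.

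**Figure D1:**
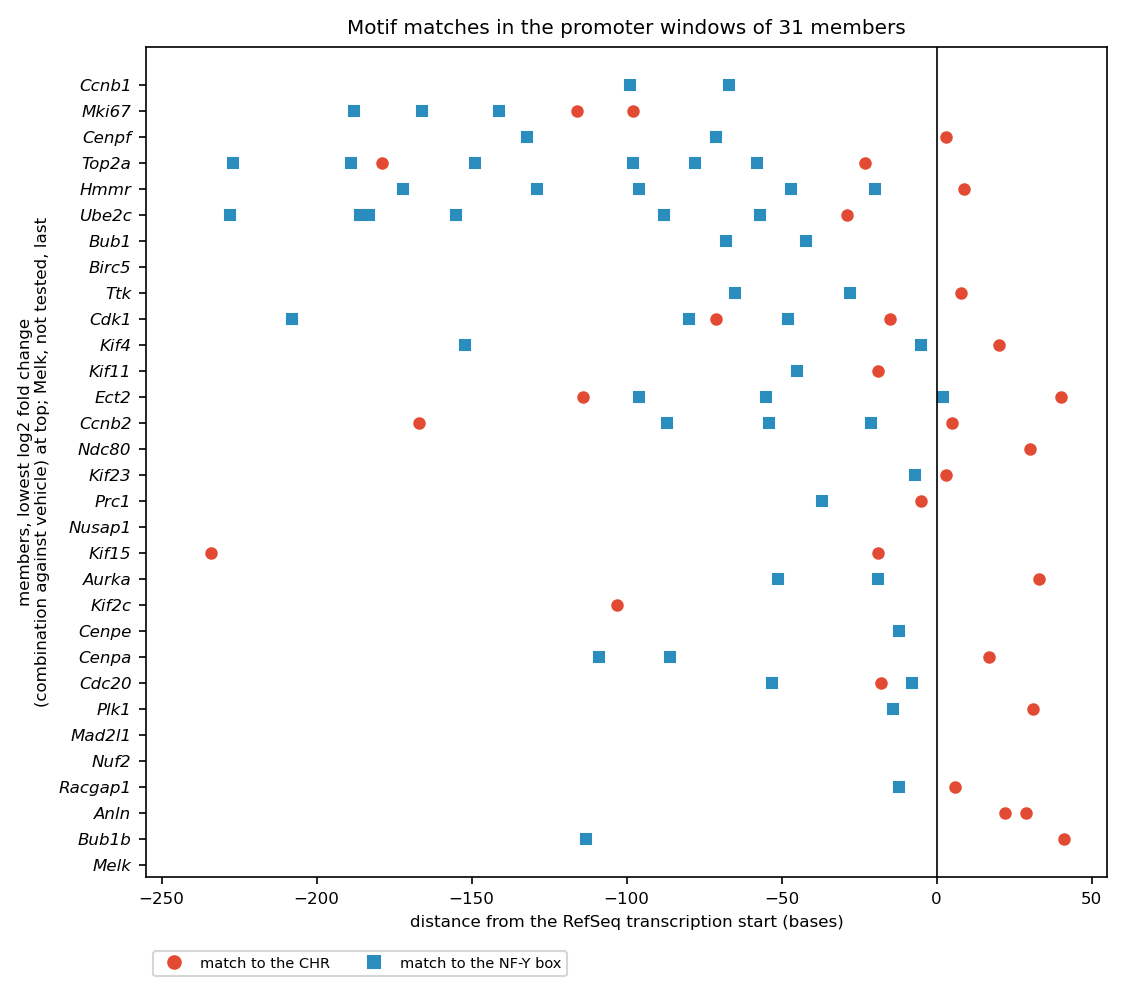
Matches to the CHR core (circles) and to the NF-Y box (squares) in the promoter windows of 31 genes. The x axis is the distance in bases from the RefSeq transcription start (vertical line), and genes run from the lowest to the highest log2 fold change of the combination against vehicle, with Melk, which was not tested, last. Matches crowd near the start in genes at the top and at the bottom of the order.

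Genes with both motifs overlapped the others in fold change. Among tested genes, the median log2 fold change of the combination against vehicle was -0.66 in 19 genes with both motifs and -0.49 in 11 genes without both, with ranges of -1.75 to 1.08 and -2.72 to 0.29. Ccnb1, which had the lowest fold change of all, had 2 CCAAT boxes and no TTTGAA in its window. Bub1b, which had the highest, had both motifs.

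Vehicle 3 was the shallowest library with 5391543 counts in total and vehicle 2 the deepest with 42321550, and all others lay between 11686288 and 24676846. Values are given as CPM, counts scaled to a common library size, with TMM factors between libraries. The detection floor was set at 3 counts, which is between 0.0697 CPM in vehicle 2 and 0.536 CPM in vehicle 3. The floors and the exact counting intervals of ratios of summed counts cover counting error only. The intervals of fold changes come from the fit described next and also take in the spread between libraries. Liver transcripts were high in 3 libraries, with Alb at 4543 CPM in ERKi 3, at 3155 CPM in CDKi 1 and at 4534 CPM in CDKi 3. The comparisons were made with edgeR's quasi-likelihood test on 15385 genes with enough counts, adjusted by the Benjamini-Hochberg method over all of them with a threshold of 0.05, and 37 of the 38 genes were tested. Melk, a kinase of cycling cells, fell short of the count filter. The comparisons of the combination, ERKi and CDKi with vehicle share the same 6 vehicle libraries.

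Together the mitosis genes were lowest in nerves given the combination, but no single gene passed the adjusted threshold. Because the genes were chosen with earlier results of these data known, no set test was run and the counts below are descriptive. Of 37 tested genes, 33 had a lower fitted level in the combination than in vehicle, with a median log2 fold change of -0.62, while over all tested genes 43.6% were lower and the median was 0.036. With edgeR 0 of the 37 were called, against 0.123% of all tested genes (19 genes), and the smallest adjusted p among the 37 was 0.123. At an unadjusted p under 0.05, 14 of the 37 were lower in the combination, against a background of 6.58% of all tested genes, and 1 was higher, against a background of 4.93%. DESeq2, run as an alternative, called 2 of the 37, Ccnb1 (adjusted p = 0.0198) and Mki67 (adjusted p = 0.0363), while it called 262 genes over all. With limma-voom 0 of the 37 were called, beside 29 genes over all. In no gene did the 6 combination libraries lie wholly apart from the 6 vehicle libraries, against a background of 0.578% of tested genes wholly lower and 0.279% wholly higher.

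The number at an unadjusted p under 0.05 depended on single libraries. Among fits that lowered it, the number was 5 without the deepest and the shallowest library, 8 without vehicle 3 and 9 without combination 6. It was 9 when the fit held only the groups compared. It was 5 with the adipocyte list as a covariate. The median stayed below 0 in each of these fits. With single libraries left out it ran from -0.85 (without combination 3) to -0.54 (without combination 6). The share of all tested genes at that p was not computed in any of these fits, so a change in these genes cannot be told from a change in all genes.

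The single drugs gave smaller shifts. In ERKi, 28 of 37 genes were below vehicle with a median log2 fold change of -0.20, and 0 of 37 had an unadjusted p under 0.05, against a background of 2.91% lower and 3.43% higher. In CDKi, 29 of 37 were below vehicle with a median of -0.26, and again 0 of 37 had an unadjusted p under 0.05, against a background of 0.91% lower and 2.21% higher. With edgeR 0 of the 37 were called in either comparison, against 0% of all tested genes. The direction of these medians did not hold in every fit. In ERKi the median was 0.0044 with limma-voom, -0.067 with the neuron list and -0.039 with the adipocyte list as covariate. In CDKi it was 0.037 with the adipocyte list as covariate. Without the deepest and the shallowest library, both vehicle, the medians were -0.01 in ERKi and -0.09 in CDKi, both nearer 0. Without vehicle 4 and CDKi 3, chosen after the data were seen, they were -0.35 in ERKi and -0.64 in CDKi.

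**Figure D2:**
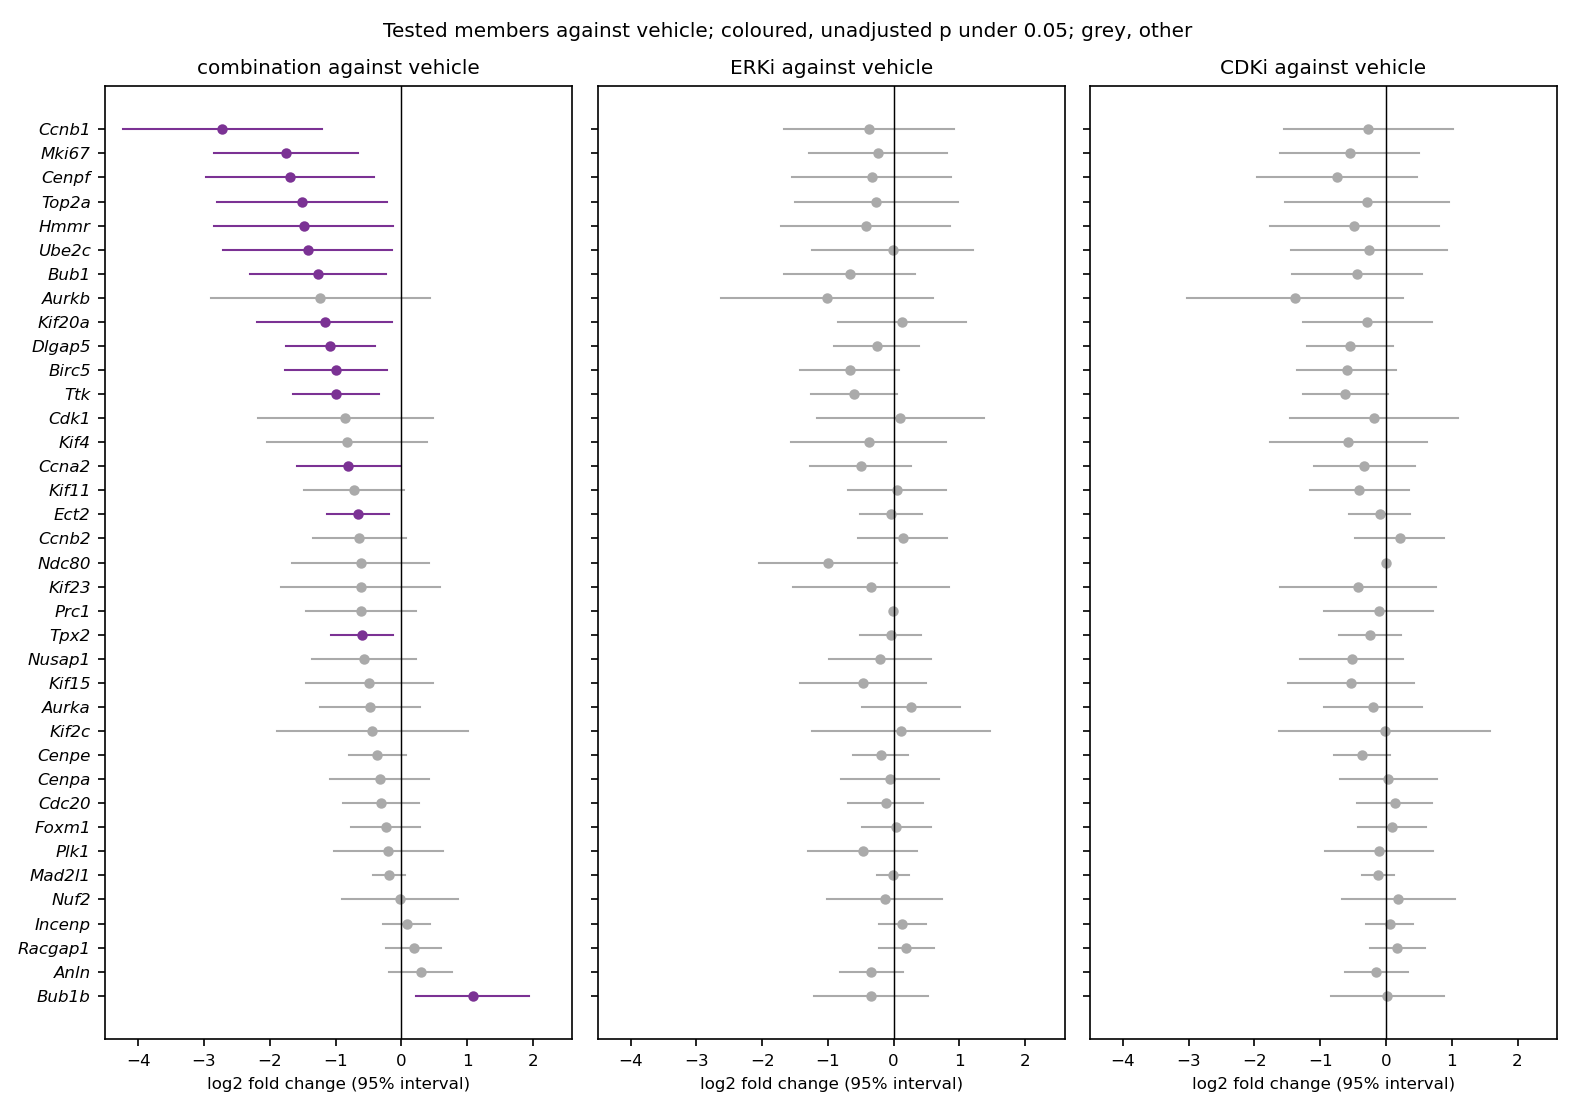
Log2 fold changes against vehicle (points, with 95% intervals as lines) of the 37 tested genes in the combination, ERKi and CDKi. The x axis is log2 fold change and genes run from the lowest to the highest value in the combination. Coloured points have an unadjusted p under 0.05, and points without a line lie within 0.01 of 0, where no interval was computed. Coloured points appear in the combination panel, 14 to the left of 0 and 1, Bub1b, to the right.

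Both proliferation markers had lower means in the combination, without passing the threshold. Mki67 encodes Ki-67, a coat protein of mitotic chromosomes that marks cycling cells. Its level had a minimum of 1.01, a median of 3.67 and a maximum of 10.8 CPM in the combination, 8.71, 9.87 and 19.7 CPM in ERKi, 2.62, 9.06 and 19.98 CPM in CDKi and 3.24, 17.02 and 21.6 CPM in vehicle. Its means were 4.29 ± 3.45 CPM in the combination and 14.4 ± 7.65 CPM in vehicle (SD, n = 6 each), a log2 fold change of -1.75 ± 0.53 (SE, edgeR adjusted p = 0.162). All 6 combination libraries lay below the vehicle mean, but vehicle 4 at 3.24 CPM and vehicle 6 at 7.11 CPM lay within their range. Top2a, the topoisomerase that untangles chromosomes, had a minimum of 0.541, a median of 1.34 and a maximum of 5.6 CPM in the combination and 1.21, 6.99 and 9.29 CPM in vehicle, a log2 fold change of -1.51 ± 0.62 (SE, edgeR adjusted p = 0.333). The lowest vehicle library was again vehicle 4, and vehicle 6 at 2.44 CPM of Top2a also lay within the combination range. The highest combination library was combination 3 for both genes.

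Neither marker passed the threshold in ERKi or CDKi. Mki67 had a log2 fold change of -0.24 ± 0.51 in ERKi and -0.55 ± 0.51 in CDKi, while Top2a had -0.27 ± 0.60 in ERKi and -0.28 ± 0.60 in CDKi (SE, edgeR adjusted p from 0.876 to 1). The intervals of Mki67 ran from -1.29 to 0.82 in ERKi and from -1.61 to 0.50 in CDKi.

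**Figure D3:**
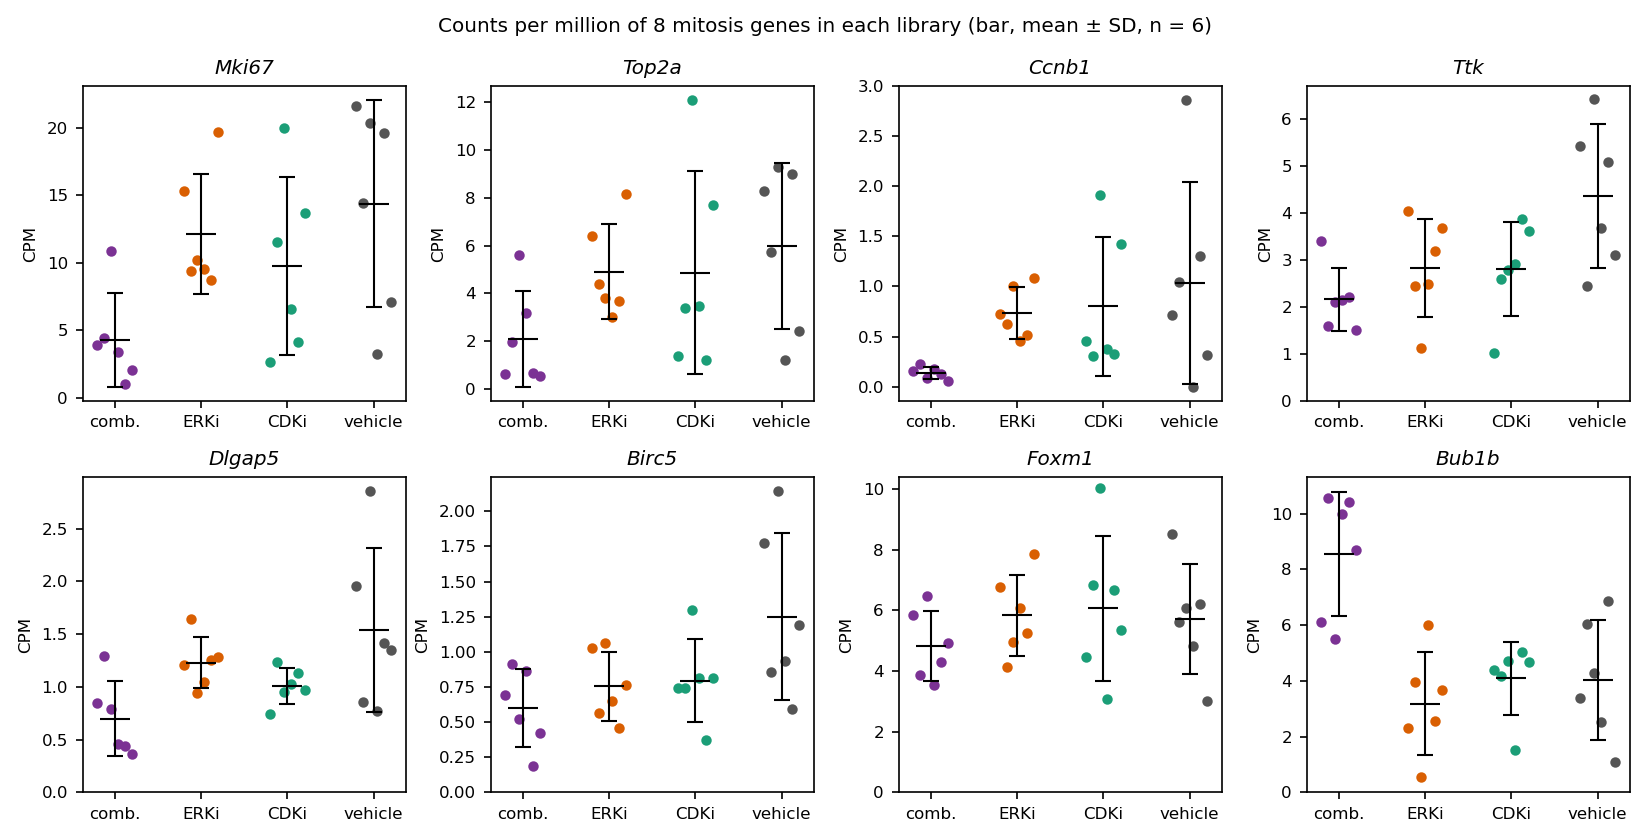
CPM of 8 genes in each library, with a panel per gene, points for single libraries and bars for the mean ± SD of 6 libraries. The combination (comb.) stands at the left, then ERKi, CDKi and vehicle. Ccnb1 in the combination lies between 0.0601 and 0.228 CPM, below every ERKi and CDKi library, and Bub1b in the combination lies between 5.51 and 10.6 CPM.

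Cyclins and their kinase all had lower fitted levels in the combination, none of them called by edgeR, with Ccnb1 at the counting floor. Ccnb1 encodes cyclin B1, which activates CDK1 to start mitosis. All 6 combination libraries held 1 to 3 counts of Ccnb1, 13 in sum, while the counts ran from 7 to 27 in ERKi, from 5 to 28 in CDKi and from 0 to 45 in vehicle. On the CPM scale it had a minimum of 0.0601, a median of 0.143 and a maximum of 0.228 in the combination, and 0, 0.878 and 2.86 in vehicle. The combination libraries lay wholly below those of ERKi and of CDKi, but not below vehicle 4, which had 0 counts. The log2 fold change against vehicle was -2.72 ± 0.73 (SE, edgeR adjusted p = 0.123), and without vehicle 4 it was -3.01 with an adjusted p of 0.0286. From the summed counts, 13 in the combination and 97 in vehicle, the ratio per scaled read was 0.164, with an exact 95% counting interval of 0.0845 to 0.295. The same ratio was 0.895 (0.659 to 1.21) in ERKi and 0.919 (0.676 to 1.25) in CDKi. Vehicle 2 alone held 45 of the 97 vehicle counts, so these sums lean on the deepest library.

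Ccnb1 was the gene with groups wholly apart in both comparisons of the combination with a single drug. The log2 fold change of the combination was -2.35 ± 0.73 against ERKi (edgeR adjusted p = 0.434) and -2.45 ± 0.73 against CDKi (edgeR adjusted p = 0.400). Groups were wholly apart and lower in 0.208% of tested genes against ERKi and in 0.175% against CDKi. With counts this low a single read moves a library by a large share of its value.

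The other cyclins and Cdk1 had smaller fold changes. Cdk1, the kinase that drives entry into mitosis, had a minimum of 0.160, a median of 0.500 and a maximum of 1.67 CPM in the combination and 0.330, 0.932 and 2.09 CPM in vehicle, with a log2 fold change of -0.85 ± 0.64 (SE, edgeR adjusted p = 0.662). It did not pass in ERKi (0.10 ± 0.61) or CDKi (-0.19 ± 0.62). Ccna2, which encodes cyclin A2 of S phase and G2, averaged 1.96 ± 0.785 CPM in the combination and 3.44 ± 1.497 CPM in vehicle, and Ccnb2, which encodes another B-type cyclin, averaged 0.555 ± 0.303 CPM in the combination and 0.873 ± 0.224 CPM in vehicle (SD, n = 6 each). The groups overlapped for all 3 genes.

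Among the 7 kinases of mitosis and its checkpoint, 6 were tested, and 5 of these were lower and 1 higher in the combination than in vehicle. Ttk encodes MPS1, the kinase that starts checkpoint signalling at unattached kinetochores. It had a minimum of 1.501, a median of 2.12 and a maximum of 3.41 CPM in the combination, 1.13, 2.83 and 4.05 CPM in ERKi, 1.03, 2.86 and 3.87 CPM in CDKi and 2.44, 4.38 and 6.43 CPM in vehicle. Its log2 fold change against vehicle was -0.99 ± 0.32 in the combination, -0.60 ± 0.31 in ERKi and -0.62 ± 0.31 in CDKi (SE, edgeR adjusted p = 0.191, 0.672 and 1). All 6 libraries of each treated group lay below the vehicle mean of Ttk, although each group overlapped vehicle.

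Bub1, a checkpoint kinase at kinetochores, averaged 0.463 ± 0.210 CPM in the combination and 1.22 ± 1.18 CPM in vehicle, where vehicle 3 reached 3.57 CPM. This gave a log2 fold change of -1.26 ± 0.50 (SE, edgeR adjusted p = 0.301). Aurkb, the kinase of the chromosomal passenger complex, was at 3 counts or fewer in 10 of 24 libraries, 4 of them combination, 1 ERKi, 4 CDKi and 1 vehicle. Its summed counts were 29 in the combination, 44 in ERKi, 32 in CDKi and 87 in vehicle. Aurkb had fold changes below 0 in each treatment, with log2 values of -1.23 ± 0.80 in the combination, -1.01 ± 0.78 in ERKi and -1.38 ± 0.80 in CDKi (SE, edgeR adjusted p = 0.587, 0.676 and 1), and every interval held 0. Plk1, a kinase of spindle assembly and cytokinesis, had 0.976 ± 0.268 CPM in the combination and 1.13 ± 0.668 CPM in vehicle and a log2 fold change of -0.20 ± 0.40. Aurka, which acts at spindle poles, averaged 1.14 ± 0.874 CPM in the combination and 1.59 ± 0.360 CPM in vehicle.

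Bub1b was the kinase-family gene that was higher. It encodes BUBR1, a part of the mitotic checkpoint complex that restrains CDC20. It was described, like Bub1, Cenpf, Hmmr, Ube2c, Ect2, Tpx2 and Anln, after its values were seen. Bub1b had a minimum of 5.51, a median of 9.35 and a maximum of 10.6 CPM in the combination, 0.563, 3.12 and 6.01 CPM in ERKi, 1.51, 4.54 and 5.05 CPM in CDKi and 1.09, 3.83 and 6.86 CPM in vehicle. The 6 combination libraries lay wholly above those of CDKi, and 4 of them lay above every vehicle and ERKi library. Its log2 fold change was 1.08 ± 0.42 against vehicle, 1.43 ± 0.42 against ERKi and 1.06 ± 0.41 against CDKi (SE, edgeR adjusted p = 0.282, 0.397 and 0.539). Groups were wholly apart and higher in 0.0715% of tested genes in the combination against CDKi. At 63 to 173 counts per combination library it was far above the floor.

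Birc5 and Incenp encode survivin and the scaffold of the chromosomal passenger complex, the partners of Aurkb. Birc5 had a minimum of 0.189, a median of 0.608 and a maximum of 0.913 CPM in the combination and 0.591, 1.06 and 2.14 CPM in vehicle. The log2 fold change of Birc5 was -0.99 ± 0.37 in the combination, -0.67 ± 0.36 in ERKi and -0.60 ± 0.36 in CDKi (SE, edgeR adjusted p = 0.266, 0.672 and 1). Incenp had 6.04 ± 0.673 CPM in the combination, 6.25 ± 1.09 in ERKi, 5.95 ± 1.96 in CDKi and 5.71 ± 0.526 in vehicle (SD, n = 6 each). Within this complex the 3 genes thus had log2 fold changes of -1.23 (Aurkb), -0.99 (Birc5) and 0.08 (Incenp) in the combination, none of them called.

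The 6 centromere and kinetochore genes were all below 0 in the combination, from -1.69 to -0.02 on the log2 scale. Cenpf, a large protein of the outer kinetochore, had a minimum of 0.316, a median of 1.02 and a maximum of 3.76 CPM in the combination and 0.384, 5.24 and 9.64 CPM in vehicle, a log2 fold change of -1.69 ± 0.61 (SE, edgeR adjusted p = 0.249). The lowest vehicle value was that of vehicle 4. Cenpe, a kinetochore motor that aligns chromosomes, had 3.43 ± 0.736 CPM in the combination, 3.84 ± 0.511 in ERKi, 3.44 ± 0.993 in CDKi and 4.45 ± 1.12 in vehicle (SD, n = 6 each). Cenpe had a log2 fold change of -0.36 ± 0.21 in the combination and -0.36 ± 0.21 in CDKi (SE, edgeR adjusted p = 0.525 and 1).

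Ndc80 and Nuf2 encode a pair of proteins that bind microtubules together at the kinetochore. Ndc80 averaged 0.583 ± 0.497 CPM in the combination, 0.433 ± 0.210 in ERKi, 0.874 ± 0.429 in CDKi and 0.931 ± 0.619 in vehicle (SD, n = 6 each). Its lowest group was ERKi, with a log2 fold change of -1.0 ± 0.51 (SE, edgeR adjusted p = 0.672) and all 6 libraries below the vehicle mean. Nuf2 averaged 0.704 ± 0.390 CPM in the combination and 0.740 ± 0.381 CPM in vehicle. Mad2l1, a checkpoint protein that binds CDC20, had 9.81 ± 1.44 CPM in the combination, 11.05 ± 0.996 in ERKi, 10.3 ± 1.58 in CDKi and 11.2 ± 1.51 in vehicle. Cenpa, the histone that marks centromeres, averaged 1.09 ± 0.373 CPM in the combination and 1.41 ± 0.888 CPM in vehicle.

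The 6 kinesins, motors that slide, cross-link or take apart spindle microtubules, ranged from -1.16 to -0.44 on the log2 scale in the combination. Kif20a, a motor of the central spindle, averaged 0.688 ± 0.551 CPM in the combination and 1.55 ± 0.676 CPM in vehicle, a log2 fold change of -1.16 ± 0.50 (SE, edgeR adjusted p = 0.352). Kif11, the motor that pushes spindle poles apart, averaged 1.89 ± 0.858 CPM in the combination and 3.15 ± 1.21 CPM in vehicle, with all 6 combination libraries below the vehicle mean. Kif4, Kif15, Kif23 and Kif2c had log2 fold changes of -0.83, -0.49, -0.62 and -0.44 with standard errors from 0.46 to 0.70. In each of these 4 genes the SD within vehicle exceeded the difference of the means.

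The 5 spindle proteins were below 0 in all 3 treatments. Dlgap5, which stabilises microtubules of the forming spindle, had a minimum of 0.360, a median of 0.6249 and a maximum of 1.29 CPM in the combination, 0.939, 1.23 and 1.65 CPM in ERKi, 0.741, 0.998 and 1.23 CPM in CDKi and 0.769, 1.38 and 2.86 CPM in vehicle. Dlgap5 had log2 fold changes of -1.08 ± 0.33 in the combination, -0.26 ± 0.31 in ERKi and -0.55 ± 0.32 in CDKi (SE, edgeR adjusted p = 0.158, 0.762 and 1). Hmmr, a spindle pole protein, averaged 0.446 ± 0.302 CPM in the combination and 1.29 ± 0.925 CPM in vehicle, and combination 5 held 0 counts. Tpx2, which activates Aurora A on spindle microtubules, averaged 2.79 ± 0.779 CPM in the combination and 4.24 ± 1.10 CPM in vehicle, a log2 fold change of -0.60 ± 0.23 (SE, edgeR adjusted p = 0.275). Nusap1 and Prc1, which bundle spindle microtubules, had log2 fold changes of -0.57 (Nusap1) and -0.62 (Prc1). For each of the 5 spindle genes all 6 combination libraries lay below the vehicle mean.

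The cytokinesis genes lay on both sides of 0. Ect2, the exchange factor that activates RhoA at the division plane, averaged 2.54 ± 0.886 CPM in the combination, 3.89 ± 0.632 in ERKi, 3.74 ± 0.937 in CDKi and 4.05 ± 1.23 in vehicle, and its log2 fold change in the combination was -0.66 ± 0.23 (SE, edgeR adjusted p = 0.227). Racgap1, a part of the centralspindlin complex that binds ECT2, averaged 6.30 ± 1.18 CPM in the combination and 5.52 ± 0.475 CPM in vehicle. Anln, an actin-binding scaffold of the cleavage furrow, was the most abundant of the 38 genes, with 25.3 to 97.4 CPM in combination libraries, 31.9 to 54.5 CPM in ERKi libraries, 37.7 to 51.9 CPM in CDKi libraries and 36.2 to 65.3 CPM in vehicle libraries. Per kilobase of exon its mean was 6.73 CPM in the combination, 4.34 in ERKi, 4.95 in CDKi and 5.48 in vehicle, while that of Mki67 was 0.426 in the combination, 1.21 in ERKi, 0.970 in CDKi and 1.43 in vehicle. Anln had a log2 fold change of 0.29 ± 0.23 against vehicle and 0.63 ± 0.23 against ERKi (SE, edgeR adjusted p = 0.686 and 0.450).

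Regulators of the anaphase-promoting complex, the ubiquitin ligase that destroys cyclin B, differed from each other. Ube2c, its ubiquitin-conjugating enzyme, had 0 to 8 counts in the combination, 7 to 23 counts in ERKi, 4 to 24 counts in CDKi and 1 to 22 counts in vehicle. Its log2 fold change in the combination was -1.43 ± 0.62 against vehicle and -1.41 ± 0.61 against ERKi (SE, edgeR adjusted p = 0.360 and 0.500). Cdc20, its activator, averaged 1.78 ± 0.834 CPM in the combination and 2.21 ± 0.484 CPM in vehicle. Foxm1, the transcription factor that activates many of these genes in G2, had a minimum of 3.53, a median of 4.61 and a maximum of 6.47 CPM in the combination, 4.15, 5.66 and 7.85 CPM in ERKi, 3.08, 6.00 and 10.02 CPM in CDKi and 3.01, 5.84 and 8.53 CPM in vehicle. Its log2 fold change was -0.24 ± 0.25 in the combination, 0.04 ± 0.25 in ERKi and 0.09 ± 0.25 in CDKi (SE, edgeR adjusted p = 0.801, 0.966 and 1), and all 4 groups overlapped.

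Splitting the design by drug asked what each inhibitor changed across both states of the other, with 12 libraries on each side. Across CDK4/6 inhibition 30 of 37 genes were below 0, with a median log2 difference of -0.36, and 9 were lower and 1 higher at an unadjusted p under 0.05, against backgrounds of 2.8% and 4.89%. Dlgap5 (-0.68 ± 0.23), Mki67 (-1.03 ± 0.37) and Ccnb1 (-1.31 ± 0.48) had the smallest p (SE, edgeR adjusted p = 0.459, 0.504 and 0.533). The 9 lower genes became 2 with the adipocyte list as covariate, where the median was -0.22, and 3 without the deepest and the shallowest library. They became 14 with limma-voom, 5 without vehicle 3 or without CDKi 1 and 16 without CDKi 3. The share of all tested genes at that p was not computed in these fits or in those below for ERK1/2 inhibition. Across ERK1/2 inhibition 33 of 37 were below 0, with a median of -0.28, and 4 were lower and 0 higher at an unadjusted p under 0.05, against backgrounds of 5.85% and 3.69%. The 4 became 2 with limma-voom and 2 without the deepest and the shallowest library, and lay between 1 (without vehicle 3 or without CDKi 6) and 10 (without vehicle 4) when single libraries were left out. Ccnb1 (-1.41 ± 0.48), Ndc80 (-0.81 ± 0.36) and Ttk (-0.49 ± 0.22) had the smallest p there (SE, edgeR adjusted p = 0.330, 0.478 and 0.492). With edgeR 0 of the 37 were called in either, against 0% of all tested genes.

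The interaction asked whether the combination differed from the sum of the single drugs on the log2 scale. It was below 0 in 24 of 37 genes, with a median of -0.28 that was 0.0074 without vehicle 4 and CDKi 3, and 2 were lower (background 2.09%) and 2 higher (background 1.61%) at an unadjusted p under 0.05. Ccnb1 had an interaction of -2.08 ± 0.95, Bub1b of 1.41 ± 0.59 and Anln of 0.78 ± 0.33 (SE, edgeR adjusted p = 0.988 for each), and with edgeR 0 of the 37 were called, against 0% of all tested genes. DESeq2 and limma-voom also called 0 of the 37 in every contrast other than the combination against vehicle. Against ERKi the combination was lower in 32 of 37 genes, with 10 lower and 2 higher at an unadjusted p under 0.05 (backgrounds 3.61% and 5.73%). Against CDKi it was lower in 31 of 37, with 4 lower and 1 higher (backgrounds 4.71% and 2.36%). The 4 became 1 without CDKi 3, a fit in which the share of all tested genes was not computed. With edgeR 0 of the 37 were called in either, against 0% of tested genes for ERKi and 0.0065% for CDKi.

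Many of these genes were counted near the floor. At least 1 library held 3 counts or fewer in 13 of the 38 genes, and 46 of 912 gene-by-library values were that low. Of these 46 values, 26 were in the combination, 5 in ERKi, 8 in CDKi and 7 in vehicle, and 7 were at 0. Aurkb had 10 such libraries, Ccnb1 and Melk 7 each and Kif2c 6. Melk, below the filter for testing, held 20 counts in the combination, 45 in ERKi, 38 in CDKi and 52 in vehicle, a ratio per scaled read of 0.472 between the combination and vehicle with an exact 95% counting interval of 0.267 to 0.804. Kif2c, a kinesin that takes apart microtubules, gave a ratio of 0.981 (0.597 to 1.60) from sums of 32 and 40 counts in the same groups, beside a fitted log2 fold change of -0.44 ± 0.70. Counting intervals leave out the spread between libraries.

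Counting error was the smaller part of the spread in most genes. The coefficient of variation over the 6 libraries of a group exceeded 2 times that expected from counting alone in 83 of 152 gene-by-group pairs, and was under it in 8. The median observed coefficient of variation was 46.4% in the combination, 34.7% in ERKi, 45.9% in CDKi and 52.3% in vehicle, beside 24.4%, 18.1%, 20.4% and 21.8% from counting. Ccnb1 in the combination varied by 43.8%, below the 69.0% from counting, so its spread lay within counting error. Mki67 in the combination varied by 80.5%, beside 12.4% from counting.

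**Figure D4:**
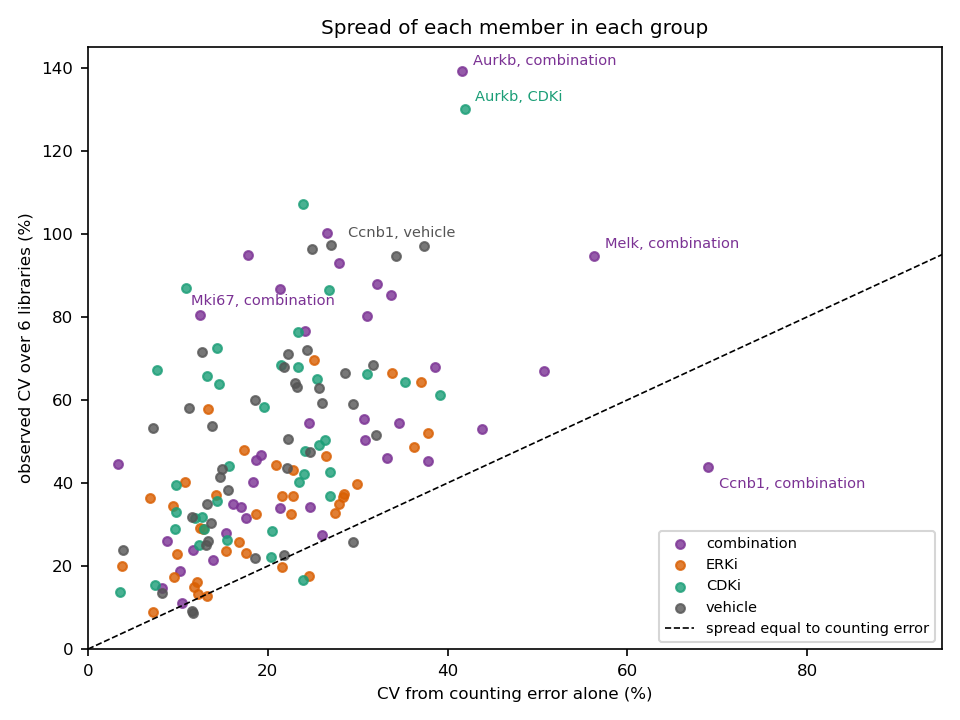
Observed coefficient of variation over 6 libraries (y axis, %) against that expected from counting error (x axis, %) for each of 38 genes in each of 4 groups. The dashed line marks equality, which 8 of 152 points fall below. Ccnb1 in the combination lies below the line, and Aurkb in the combination (139%) has the highest observed value.

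The libraries of a group differed across the whole set. Vehicle 4 was the lowest vehicle library in 24 of 38 genes and vehicle 3, the shallowest, the highest in 25. CDKi 3 was the highest CDKi library in 23 genes and CDKi 5 the lowest in 21, and combination 3 was the highest combination library in 18. The mean log2 CPM of the 37 tested genes was 0.53 ± 0.40 in the combination, 1.04 ± 0.22 in ERKi, 0.91 ± 0.52 in CDKi and 1.17 ± 0.61 in vehicle (SD, n = 6 each). Its range was 0.09 to 1.10 in the combination and 0.22 to 1.91 in vehicle, so the groups overlapped.

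**Figure D5:**
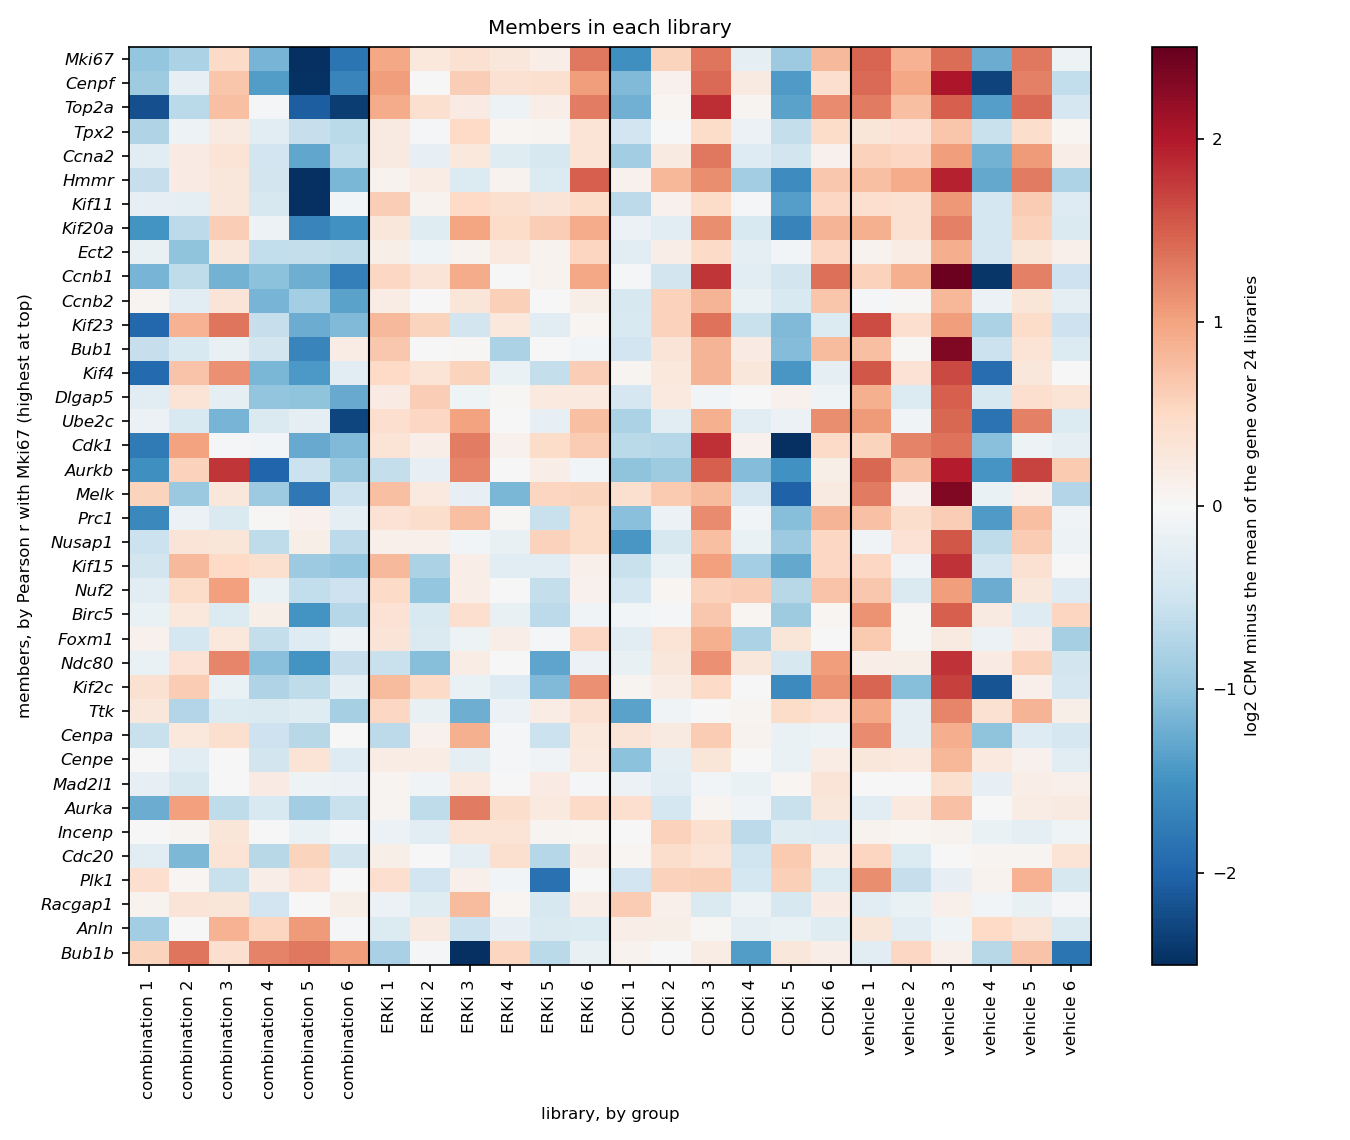
Log2 CPM of each of 38 genes (rows, by Pearson r with Mki67, highest at top) in each of 24 libraries (columns, combination, ERKi, CDKi and vehicle from left to right), minus the mean of the gene over all libraries. Red is above and blue below that mean. Vehicle 4 is blue and vehicle 3 and CDKi 3 are red over most rows, and Bub1b, the lowest row, is red in all 6 combination libraries.

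Across libraries most of the genes followed Mki67. Pearson's r of log2 CPM with Mki67 over the 24 libraries had a median of 0.646 over 37 genes, was above 0 in 34 and exceeded 0.7 in 15, and 30 of the 37 relations had a Benjamini-Hochberg adjusted permutation p under 0.05. The closest were Cenpf (r = 0.945, Spearman's rho = 0.958), Top2a (r = 0.924, rho = 0.931) and Tpx2 (r = 0.898, rho = 0.878), each with permutation p = 1e-05, the smallest that 100000 resamples can give, and an adjusted p of 4.1e-05 for both coefficients. Without combination 5 and 6, the libraries farthest from the median of Mki67, r was 0.929 for Cenpf, 0.908 for Top2a and 0.899 for Tpx2, and within groups, after group means were removed, it was 0.936, 0.895 and 0.853. Foxm1 had r = 0.579. At the other end were Bub1b (r = -0.298, permutation p = 0.16, adjusted 0.18), Anln (r = -0.294, permutation p = 0.16, adjusted 0.18), Racgap1 (r = -0.110) and Plk1 (r = 0.080). The libraries share their depth and tissue makeup across all of these relations. The share of all tested genes that follow Mki67 was not computed, so these counts do not show a trait of mitosis genes alone.

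Genes outside the set were compared from lists of the same biology. The count table held 80 further mitosis genes. Of these, 71 were tested, and 53 of the tested genes were below 0 in the combination against vehicle with a median log2 fold change of -0.23, 10 lower and 1 higher at an unadjusted p under 0.05 and 0 called by edgeR. Aspm (-1.67 ± 0.45), a spindle pole protein, and Fam64a (-3.01 ± 0.87) had the smallest p among those lower, and Cdc25b (0.60 ± 0.17), a phosphatase that activates CDK1, and Wee1 (0.59 ± 0.32), the kinase that restrains it, among those higher (SE, edgeR adjusted p = 0.123, 0.142, 0.142 and 0.500). Of 47 tested E2F and S phase genes 25 were below 0 with a median of -0.06, and 3 were lower at an unadjusted p under 0.05, with Rfc3, a clamp loader subunit, lowest in p (-0.75 ± 0.16, edgeR adjusted p = 0.0690), followed by E2f8 (-1.43 ± 0.41, adjusted p = 0.142). Of 28 regulators of DREAM, MuvB and RB 14 were below 0 with a median of 0.00, and 2 were lower and 3 higher at an unadjusted p under 0.05. Over all tested genes the median was 0.036, with 6.58% lower and 4.93% higher at an unadjusted p under 0.05 and 0.123% called by edgeR. The counts of lower genes in the S phase list and among the regulators lie near that share of lower genes.

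Markers of other cell types in the nerve were read beside these results. The summed level of 10 macrophage markers had a median of 359 CPM in the combination (203 to 715), 348 in ERKi (330 to 505), 373 in CDKi (306 to 824) and 492 in vehicle (399 to 535), and 9 of the 10 were below 0 in each treatment against vehicle. The highest macrophage sums within their groups were in combination 3, ERKi 3, CDKi 3 and vehicle 3, the libraries in which the mitosis genes were most often highest. ERKi 3 and CDKi 3 also held liver transcripts, and vehicle 3 was the shallowest library. What links these traits was not tested. The sum of 10 endothelial markers had a median of 296 CPM in the combination (202 to 584), 210 in ERKi (124 to 274), 204 in CDKi (170 to 340) and 183 in vehicle (135 to 251), with 0 of 10 below 0 in the combination. The adipocyte sum was 121 CPM in the combination (48.7 to 192), 174 in ERKi (32.9 to 242), 174 in CDKi (164 to 346) and 42.5 in vehicle (22.3 to 147). The sum of 10 nerve fibroblast markers had a median of 3305 CPM in the combination (2340 to 6194), 3766 in ERKi (1435 to 5012), 4919 in CDKi (3740 to 6675) and 5558 in vehicle (4702 to 7665), with 7 of the 10 below 0 in the combination. The sum of 10 neuron markers ran from 56.7 to 8257 CPM over the 24 libraries, with medians of 2726 CPM in the combination, 2841 in ERKi, 2289 in CDKi and 1991 in vehicle. The 8 B cell markers were low throughout, and their sums were wholly lower in the combination (1.62 to 4.11 CPM) than in vehicle (4.23 to 11.6 CPM), with 3.45 to 6.14 CPM in ERKi and 2.47 to 4.69 CPM in CDKi. Among single tested genes 0.578% were wholly lower in the combination than in vehicle, and no such share was computed for summed lists. Of these 8 markers Bank1, an adaptor of B cell receptor signalling, was the one with enough counts to test, and it fell in the combination against vehicle (log2 fold change -1.49 ± 0.25, SE, edgeR adjusted p = 0.0313). The part of these markers in the result was not tested beyond the neuron and adipocyte covariate fits. The 10 Schwann cell markers, which check the tissue, had median sums between 13271 CPM (ERKi) and 14044 CPM (vehicle). Single libraries ran from 6553 to 18668 CPM in the combination and from 4596 to 16785 CPM in ERKi. They ran from 10523 to 18637 CPM in CDKi and from 12760 to 19603 CPM in vehicle. Marker sums of marrow precursors and erythroid cells lay between 1.12 and 15.3 CPM over all libraries. Those of T and NK cells had medians of 5.87 CPM in the combination (2.27 to 15.0), 9.95 in ERKi (6.76 to 10.8), 8.11 in CDKi (4.98 to 12.7) and 11.4 in vehicle (6.975 to 18.4). Of the T and NK cell markers 4 had enough counts to test. In the combination 1 of these 4 was below 0, with a median log2 fold change of 0.54, unlike the sums. In ERKi 3 of the 4 were below 0 (median -0.16) and in CDKi 4 of the 4 (median -0.27).

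Some counts can be shared with a neighbouring gene. In the GENCODE annotation of GRCm38, 8 of the 38 genes share exon bases with a gene on the opposite strand, of which 7 are with a protein-coding gene, and whether reads were counted by strand is not given in the sources used here. Kif20a shares 29.3% of its exon bases with Cdc23 and Ube2c 22.8% with Tnnc2, a gene of skeletal muscle. Tnnc2 reached 19.7 CPM in CDKi 5, where Ube2c was at 0.430 CPM, and was at or below 2.04 CPM in every other library. The overlaps of Kif4 with Pdzd11, Ccna2 with Exosc9, Prc1 with Rccd1, Nusap1 with Oip5 and Cdc20 with Elovl1 covered 15.1% or less. Ccnb1, Mki67, Bub1b, Ttk, Dlgap5 and Birc5 had no overlap.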

How the data were processed

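Bulk RNA of sciatic nerve was sequenced in 24 libraries, and the treatment label put 6 in each of 4 groups. Per the labels' protocols, ribosomal RNA was removed from total RNA before KAPA RNA HyperPrep library construction, although polyA RNA stands under molecule. What the authors deposited is a table of raw counts, genes in rows and samples in columns. FastQC, STAR and DESeq2 with build mm10 appear per the submitters' processing notes. Counting program, annotation, versions and strandedness were not given in the sources used here. Library totals lay between 5391543 and 42321550 counts. Replicates were compared in 60 within-group pairs, and the most similar pair had a chi-square of 19.8 per degree of freedom, above sampling noise, so every library was kept as a separate sample.

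The tests used edgeR 4.0.16 under R 4.3.3. The filterByExpr filter (minimum count 10, minimum total 15) left 15385 genes. One quasi-likelihood model with TMM scaling, robust estimation and a mean per group covered all 24 libraries (20 residual degrees of freedom, biological coefficient of variation 35.9%). Two-sided p-values of each of 8 contrasts were adjusted over all 15385 genes (Benjamini-Hochberg). A prior count of 2 entered the log2 CPM of a library. The fit was tested on simulated data. Promoters came from RefSeq (GRCm38.p6) and coordinates and overlaps from GENCODE M21 on GRCm38, which has the coordinates of mm10.

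The 38 members and all lists were chosen with earlier results of these data known. Named in full are members with the 3 smallest p in each comparison with vehicle and each main effect, and Mki67, Top2a, Ccnb1, Cdk1, Plk1, Aurkb, Foxm1, Ttk and Cenpe. Of each further list the 2 smallest p per direction may be named. Other tools tried were DESeq2 1.42.0 and limma-voom (limma 3.58.1, weighted by sample quality). Scaling was changed to RLE or upper quartile, and the filter to none or to 6 libraries above 1 CPM. Further fits held the compared groups alone, added the title number series, the neuron list or the adipocyte list as a covariate, or left out the 3 libraries over 100 CPM of Alb, the deepest and shallowest library, or each library in turn. A fit without vehicle 4 and CDKi 3 was added after the data were seen.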

Additional observations from a re-analysis of the deposited data

Results flagged for a closer look

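Among 21 members described, 84 groups of 6 libraries were examined for a library far from its group, and 9 held one. With independent, normally spread values about 1 group in 20 would. Low counts and genes that move together need not keep that rate, so no excess is shown. In the combination, Mki67 was at 10.85 CPM in combination 3, against 1.01 to 4.41 CPM in the other libraries of that group, and Ttk was at 3.406 CPM in combination 1, against 1.501 to 2.21 CPM. In ERKi, Aurkb was at 0.9387 CPM in ERKi 3, against 0.181 to 0.399 CPM, Anln was at 54.52 CPM in ERKi 2, against 31.9 to 40.1 CPM, and Hmmr was at 2.163 CPM in ERKi 6, against 0.501 to 0.795 CPM. In CDKi, Cdk1 was at 3.068 CPM in CDKi 3, against 0.0537 to 1.17 CPM, Aurkb was at 1.159 CPM in CDKi 3, against 0.0537 to 0.407 CPM, and Bub1b was at 1.514 CPM in CDKi 4, against 4.19 to 5.05 CPM. In vehicle, Ndc80 was at 2.143 CPM in vehicle 3, against 0.415 to 0.946 CPM. CDKi 3 and ERKi 3 are among the libraries with liver transcripts, and vehicle 3 is the shallowest.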

How the results depend on the processing

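Over 8 contrasts, 583 of 586 alternative values of the counts of members called and of their median log2 fold changes stayed within set bounds. For a median the bound was a move under 0.439, the mean of the 4 group SDs of the members' mean log2 CPM. Only the median of the combination against vehicle, -0.62, is larger in size than this bound. The other medians could therefore reach or cross 0 within it. For the counts, all 0 as reported, the bound was a count of 0. Of the medians, 3 crossed 0 under an alternative. ERKi against vehicle was 0.0044 with limma-voom (-0.20 as reported), CDKi against vehicle 0.037 with the adipocyte list as covariate (-0.26 as reported) and the interaction 0.0074 without vehicle 4 and CDKi 3 (-0.28 as reported). The 3 values outside those bounds were the members called in the combination against vehicle, 0 as reported. DESeq2 called 2, the fit without vehicle 4 and CDKi 3 called 1, and leaving out each library in turn gave 0 to 1, the 1 being Ccnb1 without vehicle 4. Leaving out each library gave medians of -0.85 to -0.54 in the combination against vehicle, -0.35 to -0.03 in ERKi and -0.44 to -0.11 in CDKi. Over all genes the combination against vehicle had 19 calls with edgeR, 262 with DESeq2, 29 with limma-voom, 108 without the Alb-positive libraries, 122 without vehicle 4 and CDKi 3 and 0 to 94 when single libraries were left out. The cause was not tested. No paired analysis was possible because the labels number no replicates that the groups share.

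Of 2442 alternative values of single genes, 79 changed sign, all of them uncalled. Ndc80 in CDKi, 0.00 as reported, was 0.0049 with DESeq2, 0.0014 with RLE scaling, 0.0070 with no count filter and 0.0102 with only the groups compared. With limma-voom the ERKi values were 0.18 (Mki67), 0.24 (Top2a), 0.27 (Ccnb1), -0.10 (Cdk1), 0.0044 (Ttk) and 0.20 (Dlgap5), the CDKi values 0.083 (Ccnb1), 0.17 (Plk1) and 0.21 (Ndc80), Plk1 in the combination was 0.35 and Foxm1 across ERK1/2 inhibition 0.071. With the title number series as a term Foxm1 in ERKi was -0.018. With the neuron list as covariate Top2a in ERKi was 0.049, Ndc80 in CDKi 0.034, Plk1 in the combination 0.021, across CDK4/6 inhibition -0.0069 and across ERK1/2 inhibition 0.028, and Foxm1 across ERK1/2 inhibition 0.051. With the adipocyte list as covariate the ERKi values were 0.062 (Top2a), 0.31 (Ccnb1) and -0.063 (Foxm1), and the CDKi values 0.18 (Top2a), 0.72 (Ccnb1), 0.68 (Cdk1), 0.18 (Ndc80) and -0.094 (Foxm1). Without the Alb-positive libraries Cdk1 in ERKi was -0.11 and Foxm1 in CDKi -0.046. Without the deepest and the shallowest library Ccnb1 was 0.31 in ERKi and 0.45 in CDKi, Cdk1 0.50 and Ndc80 0.36 in CDKi, Plk1 across CDK4/6 inhibition -0.058 and Cdk1 across ERK1/2 inhibition 0.029. Without vehicle 4 and CDKi 3, Cdk1 in ERKi was -0.11 and Foxm1 was -0.0098 in ERKi and -0.14 in CDKi. Leaving out each library gave, in ERKi, -0.68 to 0.10 for Ccnb1, -0.11 to 0.41 for Cdk1 and -0.10 to 0.18 for Foxm1. In CDKi it gave -0.70 to 0.24 for Ccnb1, -0.90 to 0.16 for Cdk1, -0.23 to 0.16 for Plk1, -0.18 to 0.35 for Ndc80 and -0.10 to 0.25 for Foxm1. It gave -0.33 to 0.059 for Plk1 in the combination, -0.015 to 0.22 for Plk1 and -0.049 to 0.37 for Ndc80 across CDK4/6 inhibition, and -0.58 to 0.071 for Cdk1 and -0.97 to 0.022 for Aurkb across ERK1/2 inhibition. Depth limits Ccnb1, Aurkb, Melk, Ube2c and Kif2c, which sat at 3 counts or fewer in 3 to 10 libraries.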
